A study of Rattus norvegicus with 19 samples.

Results

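Hmgcs1, Idi1, Fdft1, Sqle, Dhcr7, Srebf2 and Insig1 were chosen by symbol as 7 genes of cholesterol synthesis and its control, out of 32623 genes in the count files. All 7 passed the filter on low counts and were among the 15440 genes tested. Their levels come from 19 hippocampal RNA-seq libraries, each of 1 male rat of the outbred Sprague Dawley strain. The rats were littermates of 4 genotypes for the chromosome 1 interval from Sult1a1 to Spn, the rat counterpart of human 16p11.2, which had been deleted or duplicated with CRISPR/Cas9. The wt group had 6 rats with 2 copies of the interval, Del/+ had 4 rats with 1 copy, Dup/+ had 5 rats with 3 copies, and Del/Dup had 4 rats that carried the deletion on one chromosome and the duplication on the other, which also gives 2 copies. Ages are not given in the labels. The rearrangement was in every cell of a carrier, not in one cell type, and whole hippocampus was sequenced, so neurons, glia and vessels are mixed in each value.

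Cholesterol in the brain is made in place, because the blood-brain barrier keeps out lipoprotein cholesterol. Oligodendrocytes make most of it for myelin, and astrocytes pass part of theirs to neurons on Apoe particles. Srebf2 encodes the transcription factor SREBP-2, which is held in the endoplasmic reticulum by its escort Scap and by Insig1 while sterols are plentiful. When sterols fall, it is cut free and switches on nearly every enzyme of the pathway, Insig1 and its own gene. Hmgcs1 condenses acetoacetyl-CoA with acetyl-CoA at the start of the mevalonate route, Idi1 interconverts the isoprenoid isomers, Fdft1 joins farnesyl units into squalene, Sqle adds oxygen to squalene, and Dhcr7 catalyses a last reduction that yields cholesterol.

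Because these genes share a regulator, their promoters are shown before their values. The table of RefSeq promoters, in build GRCr8, held 5 of the 7 genes: Hmgcs1, Idi1, Insig1, Dhcr7 and Srebf2. Sqle and Fdft1 were not matched. Both strands of each window, 250 bases before to 50 bases after the annotated start, were searched for the sterol regulatory element TCACNCCAC, for its first 8 letters TCACNCCA, for the CCAAT box that NF-Y binds, for the GC box GGGCGG that Sp1 binds, and for the E-box CACGTG. The 250 bases before the start are printed 5′ to 3′ on the gene's own strand for 4 genes, which between them carry every kind of match that was found, with all matches in capitals.
Hmgcs1, chr2:53382054-53382303, plus strand: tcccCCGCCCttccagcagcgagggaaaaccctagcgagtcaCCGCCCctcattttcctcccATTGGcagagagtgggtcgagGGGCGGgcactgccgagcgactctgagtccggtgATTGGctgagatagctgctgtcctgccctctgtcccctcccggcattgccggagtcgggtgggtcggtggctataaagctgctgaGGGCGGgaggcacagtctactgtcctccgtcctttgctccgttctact
Idi1, chr17:66547525-66547774, minus strand: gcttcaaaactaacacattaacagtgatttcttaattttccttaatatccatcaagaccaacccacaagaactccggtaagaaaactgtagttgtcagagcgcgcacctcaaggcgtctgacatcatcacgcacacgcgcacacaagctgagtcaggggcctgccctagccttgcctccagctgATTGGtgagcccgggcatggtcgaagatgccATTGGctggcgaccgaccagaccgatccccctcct
Insig1, chr4:8057770-8058019, minus strand: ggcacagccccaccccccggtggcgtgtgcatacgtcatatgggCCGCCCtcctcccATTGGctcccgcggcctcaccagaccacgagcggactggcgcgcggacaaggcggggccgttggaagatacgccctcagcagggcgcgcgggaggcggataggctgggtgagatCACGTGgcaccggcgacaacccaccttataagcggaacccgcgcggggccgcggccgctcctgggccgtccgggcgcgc
Srebf2, chr7:115543057-115543306, plus strand: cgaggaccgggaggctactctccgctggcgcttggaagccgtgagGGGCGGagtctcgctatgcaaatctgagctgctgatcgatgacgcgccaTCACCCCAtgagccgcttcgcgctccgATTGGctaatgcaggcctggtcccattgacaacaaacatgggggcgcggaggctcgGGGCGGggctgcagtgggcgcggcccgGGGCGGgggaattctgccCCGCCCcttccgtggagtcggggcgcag

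The CCAAT box was found in 4 of the 5 promoters, all but that of Dhcr7, against 37.5% of 33365 rat promoters of the same length. In these 4 it read ATTGG, the reverse strand, at each place. The Hmgcs1 promoter had it at -188 and -133, that of Idi1 at -66 and -35, that of Insig1 at -193 and that of Srebf2 at -129, counted back from the start to the leftmost base of the match. The GC box was in 4 of the 5, all but Idi1, against 33.1% of promoters. In Dhcr7 it stood at -39 and -34, where the 2 matches share a base. The 8-letter form of the sterol element was in the Srebf2 promoter alone, at -156 as TCACCCCA, against 3.9% of promoters, and the 9-letter form, held by 1.1%, was in none of the 5. The E-box was in the Insig1 promoter alone, at -79, against 6.43%. Over the members and pathway enzymes together, 18 of 23 genes had a promoter in the table; 15 held a CCAAT box, 16 a GC box and 2 the 8-letter sterol element. A match is a string of letters in a window, and the libraries did not measure binding.

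Between 16191192 and 38760645 reads were assigned to genes in a library, with 503 to 15231 reads on a single one of the 7 genes in a single library. A level here is the CPM of a gene, its count scaled to a common library size after TMM normalization. Gene lengths of the build used for counting were not used here, so levels are not compared between genes. Genes of the interval served as a check of the genotypes: the median level of its 23 tested genes, relative to the mean of wt, lay between 0.477 and 0.535 in Del/+ libraries, between 1.4 and 1.5 in Dup/+ libraries and near 1 in the rest (0.973 to 1.01 for wt, 0.94 to 1.01 for Del/Dup). For wt replicate 5 the label's genotype field reads Dup/+ and its description reads wt; it stood at 0.973 and was kept as wt. Between 57.8% and 70.7% of reads were multi-mapped in Del/Dup and up to 76.3% in Del/+, where replicates 1 to 3 exceeded 55% and replicate 4 had 41.6%, against 40.1% to 47.6% in wt and 45.1% to 50.5% in Dup/+. The share of multi-mapped reads and the genotype can therefore not be told apart in full.

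Across the 4 genotypes the 7 genes stayed within narrow limits. The highest library exceeded the lowest by a ratio of 1.215 for Hmgcs1 and up to 1.386 for Idi1, over all 19 animals. Fitted differences from wt ran from -0.19 (Srebf2 in Del/+) to 0.12 (Idi1 in Del/+) on the log2 scale, and no gene passed an adjusted p of 0.05 in edgeR's quasi-likelihood test in any comparison. The plot of levels by library shows where the groups overlap.

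**Figure D1:**
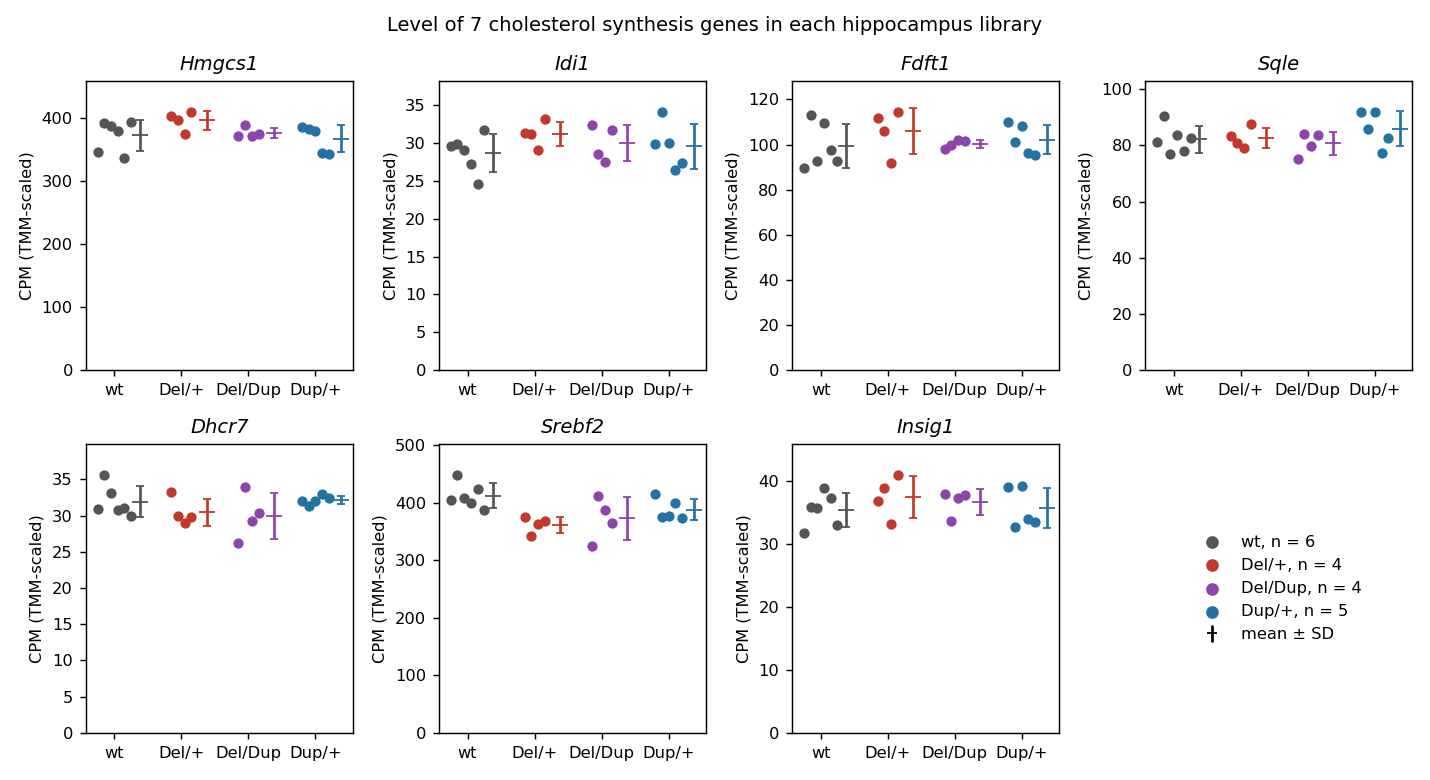
Level of each gene in CPM after TMM scaling (vertical axis, from 0) in every library, by genotype (6 wt, 4 Del/+, 4 Del/Dup and 5 Dup/+ rats). Each point is 1 rat and the bar beside it gives the mean ± SD of the group; the Srebf2 points of Del/+, 342 to 374, lie below all wt points, 386 to 448, and for the other 6 genes Del/+ and wt overlap.

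Srebf2 had the clearest difference. In Del/+ its level was 374, 342, 362 and 368 CPM in replicates 1 to 4, and in wt it ran from 386 over a median of 406.5 to 448 CPM. Every Del/+ library was below every wt library. In Del/Dup, replicates 2 to 5 had 325, 412, 388 and 365 CPM, and in Dup/+ replicates 1 to 5 had 414.5, 376, 376, 399.5 and 373 CPM. Both groups overlapped wt and each other, and Del/Dup replicate 2 was the lowest of the 19 libraries. The means were 412 ± 21.6 CPM in wt (SD, n = 6), 362 ± 13.99 in Del/+ (SD, n = 4), 372 ± 36.9 in Del/Dup (SD, n = 4) and 388 ± 18.4 in Dup/+ (SD, n = 5).

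The difference of Srebf2 between Del/+ and wt was -0.19 ± 0.056 on the log2 scale (fitted value ± SE), a change of -12.2%, with a 95% interval of -0.30 to -0.070. Its p was 0.00334, which became an adjusted p of 0.0991 over all genes in edgeR's quasi-likelihood test with Benjamini-Hochberg adjustment. Over 28 alternative settings this difference lay between -0.21 and -0.16 and the adjusted p between 0.0366 and 0.561. It passed in DESeq2 (adjusted p = 0.0366) and in edgeR without Del/Dup replicate 2 (adjusted p = 0.0484), and in no other of these settings. Del/Dup differed from wt by -0.15 ± 0.056 (adjusted p = 0.226, edgeR), or by -0.084 without Del/Dup replicate 2 and by -0.19 without Del/Dup replicate 3. Dup/+ differed from wt by -0.087 ± 0.053 (adjusted p = 0.645, edgeR), with an interval of -0.20 to 0.023. With 1 copy and with 3 copies of the interval the fitted level of Srebf2 was thus below wt in both, and the slope per copy was 0.045 ± 0.035 (adjusted p = 0.67, edgeR).

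Insig1, the sterol-dependent retention protein, had overlapping levels in all genotypes. Del/+ had 36.9, 38.9, 33.2 and 41.1 CPM in replicates 1 to 4, Del/Dup had 37.9, 33.7, 37.4 and 37.85 CPM in replicates 2 to 5, and Dup/+ had 39.1, 32.7, 39.3, 33.95 and 33.55 CPM in replicates 1 to 5. In wt it ran from 31.7 over 35.85 to 38.9 CPM. Against wt the log2 difference was 0.080 in Del/+ (95% interval -0.064 to 0.23), 0.051 in Del/Dup (-0.095 to 0.20) and 0.0079 in Dup/+ (-0.13 to 0.15).

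Hmgcs1 opens the mevalonate route. Its level in Del/+ was 403, 397, 375 and 409 CPM in replicates 1 to 4, against 337, 383 and 394 CPM as lowest, median and highest of wt. Of the Del/+ libraries, 3 exceeded every wt library and replicate 3 lay within the wt range. Del/Dup had 372, 388, 371 and 375 CPM in replicates 2 to 5, and Dup/+ had 385, 382, 379.8, 345 and 343 CPM in replicates 1 to 5; both lay within the wt range. The log2 difference from wt was 0.089 ± 0.050 in Del/+ (95% interval -0.014 to 0.19), 0.016 in Del/Dup (-0.088 to 0.12) and -0.021 in Dup/+ (-0.12 to 0.076). Del/+ exceeded Dup/+ by 0.11 ± 0.052 (interval 0.0030 to 0.22, adjusted p = 0.356, edgeR), and the slope per copy was -0.054 ± 0.025 (adjusted p = 0.424, edgeR).

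Idi1 and Fdft1 lie in the middle of the route, on either side of farnesyl synthesis. Idi1 had 31.3, 31.2, 29.1 and 33.1 CPM in Del/+ replicates 1 to 4, 32.3, 28.6, 27.5 and 31.8 CPM in Del/Dup replicates 2 to 5, and 29.8, 34.1, 30.05, 26.4 and 27.3 CPM in Dup/+ replicates 1 to 5. Its wt libraries ran from 24.6 over 29.3 to 31.8 CPM, so that all groups overlapped. The log2 difference from wt was 0.12 ± 0.073 in Del/+ (95% interval -0.033 to 0.27), 0.067 in Del/Dup (-0.088 to 0.22) and 0.043 in Dup/+ (-0.10 to 0.19).

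Fdft1 had 112, 106, 91.6 and 114 CPM in Del/+ replicates 1 to 4 and 97.8, 99.6, 102 and 102 CPM in Del/Dup replicates 2 to 5. Dup/+ replicates 1 to 5 had 109.8, 101, 108.0, 96.45 and 95.5 CPM, and wt ran from 89.6 over 95.15 to 113 CPM. The groups overlapped, and the 4 Del/Dup libraries were the closest together (SD 1.86 CPM, against 9.77 in wt). Differences from wt were 0.095 in Del/+ (95% interval -0.048 to 0.24), 0.043 in Dup/+ (-0.092 to 0.18) and 0.015 in Del/Dup (-0.13 to 0.16), all on the log2 scale.

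Sqle, the first oxygen-requiring step, had 83.4, 80.8, 79.0 and 87.4 CPM in Del/+ replicates 1 to 4 and 75.0, 84.0, 79.8 and 83.8 CPM in Del/Dup replicates 2 to 5. Dup/+ replicates 1 to 5 had 91.7, 85.9, 91.8, 77.2 and 82.8 CPM, and wt ran from 76.8 over 81.95 to 90.5 CPM. Dup/+ replicates 1 and 3 were the highest of the 19 libraries, and Del/Dup replicate 2 was the lowest. The log2 difference from wt was 0.063 in Dup/+ (95% interval -0.042 to 0.17), 0.0092 in Del/+ (-0.10 to 0.12) and -0.027 in Del/Dup (-0.14 to 0.086).

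Dhcr7 closes the pathway. It had 33.2, 29.9, 28.9 and 29.8 CPM in Del/+ replicates 1 to 4, 26.3, 34.0, 29.3 and 30.3 CPM in Del/Dup replicates 2 to 5, and 32.0, 31.3, 32.0, 32.9 and 32.5 CPM in Dup/+ replicates 1 to 5. The wt libraries ran from 29.9 over 31.0 to 35.6 CPM. Del/Dup was the most spread group (SD 3.175 CPM) and Dup/+ the least (SD 0.594 CPM), and all groups overlapped. Differences from wt were -0.067 in Del/+ (95% interval -0.19 to 0.060), -0.092 in Del/Dup (-0.22 to 0.037) and 0.011 in Dup/+ (-0.11 to 0.13) on the log2 scale.

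**Figure D2:**
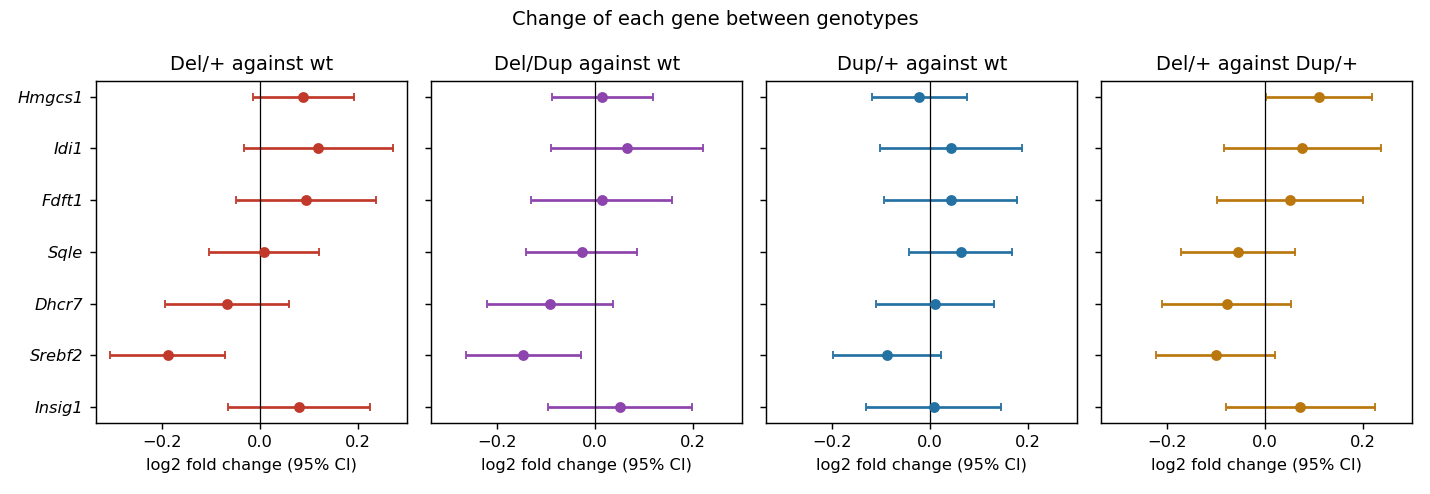
Fitted log2 fold change (horizontal axis) of each gene in 4 comparisons, 1 per panel, with 95% intervals from edgeR's quasi-likelihood fit of all 19 libraries. The intervals of Srebf2 in Del/+ and Del/Dup against wt, and of Hmgcs1 in Del/+ against Dup/+, exclude 0; all others shown include it, and no adjusted p was under 0.05.

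In Del/+ against wt, 0 of the 7 genes passed an adjusted p of 0.05 in edgeR, where 0.771% of all tested genes did, and 1, Srebf2, had an unadjusted p under 0.05, against 18.4% of all genes. DESeq2 called 1 of the 7, Srebf2, and 3.83% of all genes. The count was 0 of 7 in Dup/+ against wt (background 0.272%) and 0 of 7 in Del/Dup against wt (0.0907%), with 0 and 1 genes at an unadjusted p under 0.05 (background 8.94% and 16.2%). It was 0 of 7 between Del/+ and Dup/+ (0.784%), where 1 gene, Hmgcs1, had an unadjusted p under 0.05 (background 13.5%). DESeq2 called 0 of 7 in each of these 3 comparisons, and 0.518%, 1.19% and 1.66% of all genes.

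For the joint change across the 4 genotypes, tested with 3 contrasts at once, 0 of 7 passed (background 0.823%), with adjusted p from 0.183 for Srebf2 to 0.798 for Insig1 in edgeR. Srebf2 alone had an unadjusted p under 0.05 (background 18.9%). For the slope on the number of copies, 0 of 7 passed (background 0.576%) and Hmgcs1 alone had an unadjusted p under 0.05 (background 11.5%). DESeq2 called 0 of 7 in both, and 4.6% and 1.05% of all genes. Del/+ and Del/Dup both carry the deletion and differ by the added duplication. The level in Del/+ minus that in Del/Dup ran from -0.042 for Srebf2 (lower in Del/+) to 0.080 for Fdft1 (higher in Del/+) on the log2 scale, with 0 calls of 7 (background 0.175%, edgeR) and 0 genes at an unadjusted p under 0.05. Restricted to the 7 libraries of these groups with a multi-mapped share above 55%, these differences ran from -0.055 for Srebf2 to 0.052 for Hmgcs1.

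Groups without overlap were found for 1 of the 7 genes in Del/+ against wt, namely Srebf2 (background 4.94% of genes), and for 0 of 7 in Dup/+ against wt (1.17%), Del/Dup against wt (2.56%) and Del/+ against Dup/+ (5.3%). Del/+ had the highest group mean for Hmgcs1, Idi1, Fdft1 and Insig1, Dup/+ for Sqle and Dhcr7, and wt for Srebf2. The median difference over the 7 genes was 0.080 in Del/+, 0.011 in Dup/+ and 0.015 in Del/Dup on the log2 scale, beside 0.00048, -0.0018 and 0.0012 over all tested genes. Over fits without 1 library these medians ran from 0.038 (without Del/+ replicate 4) to 0.12 (without Del/+ replicate 3) in Del/+, from -0.0048 (without wt replicate 6) to 0.046 (without wt replicate 2) in Dup/+ and from -0.011 (without wt replicate 5) to 0.038 (without wt replicate 2) in Del/Dup. The comparisons with wt share the 6 wt libraries. A p that misses the threshold does not show that a gene was equal between genotypes, and the intervals above give the sizes that remain possible.

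Other genes of sterol metabolism were read from fixed lists. Of 20 tested enzymes of cholesterol synthesis, the 5 members included, 0 were called higher or lower in any of the 6 edgeR tests, and DESeq2 called 0. Lbr was listed and not measured here. At an unadjusted p under 0.05 there were 1 higher and 1 lower in Del/+, 0 in Dup/+ and 1 higher and 3 lower in Del/Dup, against wt, and 2, 0 and 2 in Del/+ against Dup/+, in the joint test and on the slope. Over all tested genes the shares at that limit were 18.4%, 8.94% and 16.2% in Del/+, Dup/+ and Del/Dup, then 13.5%, 18.9% and 11.5%. In Del/+, 13 of the 20 had a fitted value above wt (median log2 difference 0.021), in Dup/+ 11 (0.0065) and in Del/Dup 9 (-0.034).

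The 3 enzymes with the smallest p were Mvd, Cyp51 and Tm7sf2. Mvd, which decarboxylates mevalonate diphosphate, differed from wt by -0.16 ± 0.066 in Del/Dup (adjusted p = 0.241, edgeR), and by -0.097 in Del/+ and -0.10 in Dup/+. For Cyp51, the lanosterol demethylase, the slope was -0.076 ± 0.031 for each copy (adjusted p = 0.343, edgeR), the same direction as Hmgcs1. Tm7sf2, a sterol reductase, differed by -0.16 ± 0.065 in Del/+ (adjusted p = 0.2, edgeR).

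**Figure D3:**
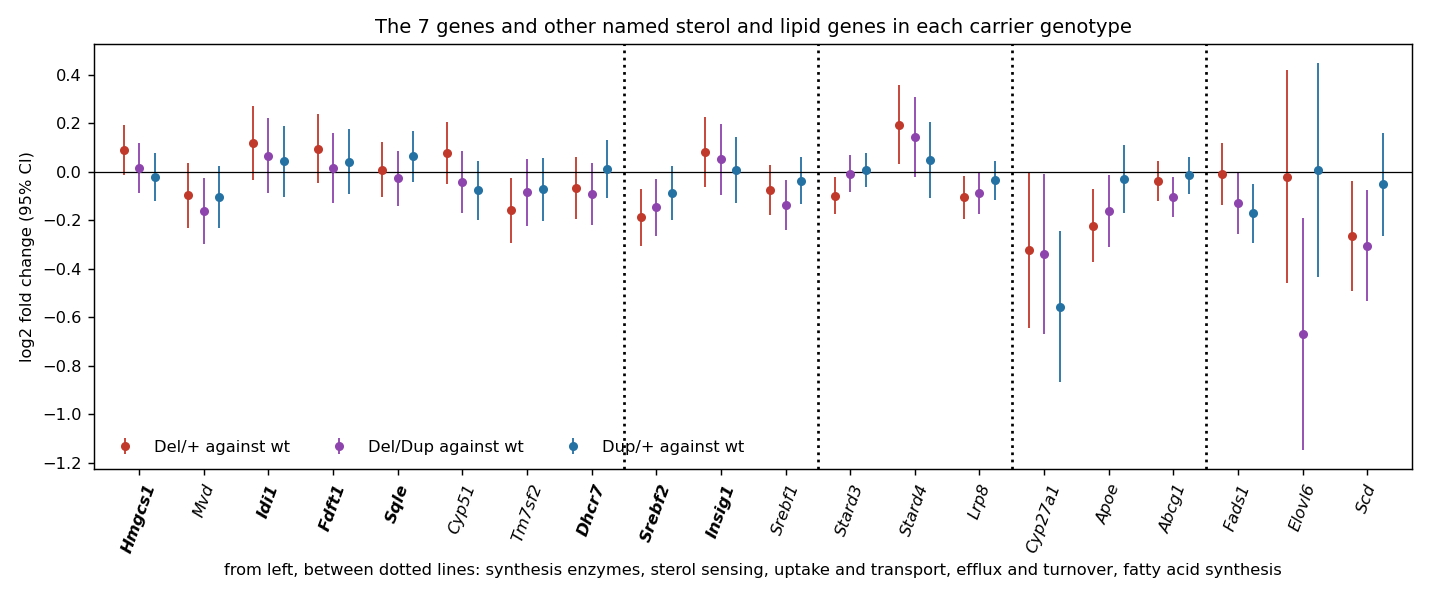
Fitted log2 fold change against wt (vertical axis, with 95% intervals) of the 7 genes, in bold, and of other named genes, for Del/+, Del/Dup and Dup/+, with dotted lines between lists (enzymes in pathway order, sterol sensing, uptake and transport, efflux and turnover, fatty acid synthesis). The other genes were chosen for small p; no gene shown passed an adjusted p of 0.05 in edgeR, Srebf2 in Del/+ lay at -0.19 and Elovl6 in Del/Dup at -0.67.

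Among 13 genes of sterol sensing, Srebf2 and Insig1 included, 0 were called in edgeR in any test and DESeq2 called 1, Srebf2 in Del/+. Of all tested genes, edgeR called 0.771% and DESeq2 3.83% in Del/+ against wt. In Del/Dup 10 of the 13 had a fitted value below wt (median -0.084), in Del/+ 8 (-0.041) and in Dup/+ 7 (-0.018). Beside Srebf2, Srebf1, which encodes the fatty acid counterpart of SREBP-2, was among those with the smallest p (Del/Dup against wt -0.14 ± 0.050, adjusted p = 0.21, edgeR). At an unadjusted p under 0.05, 2 of 13 genes were lower in Del/+, 3 in Del/Dup and 0 in Dup/+, beside 18.4%, 16.2% and 8.94% of all tested genes.

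Of 11 tested genes of sterol uptake and transport, 0 were called by edgeR or DESeq2 in any test, with 3, 1 and 0 of 11 at an unadjusted p under 0.05 in Del/+, Dup/+ and Del/Dup against wt, beside 18.4%, 8.94% and 16.2% of all tested genes. Stard3, a late endosomal sterol carrier, differed by -0.11 ± 0.038 between Del/+ and Dup/+ (adjusted p = 0.225, edgeR). Stard4, a cytosolic sterol carrier, differed by 0.195 ± 0.077 in Del/+ against wt (adjusted p = 0.186, edgeR), and Lrp8, an Apoe receptor, by -0.10 ± 0.042 (adjusted p = 0.189, edgeR).

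Of 13 genes of efflux and turnover, 0 were called by either tool, with 4, 3 and 5 of 13 at an unadjusted p under 0.05 in Del/+, Dup/+ and Del/Dup, beside 18.4%, 8.94% and 16.2% of all tested genes. Cyp27a1, a sterol hydroxylase, differed from wt by -0.56 ± 0.15 in Dup/+ (adjusted p = 0.208, edgeR), -0.32 in Del/+ and -0.34 in Del/Dup. Apoe, the main apolipoprotein of the brain, differed by -0.22 ± 0.072 in Del/+ (adjusted p = 0.115, edgeR), and Abcg1, a sterol exporter, by -0.10 ± 0.040 in Del/Dup (adjusted p = 0.221, edgeR).

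Of 12 genes of fatty acid synthesis, the pathway that Srebf1 drives, 0 were called by either tool, with 1, 1 and 4 of 12 at an unadjusted p under 0.05 in Del/+, Dup/+ and Del/Dup, beside the same shares of all genes. In Del/Dup 11 of 12 had a fitted value below wt (median -0.11). Fads1, a fatty acid desaturase, differed by -0.17 ± 0.058 in Dup/+ (adjusted p = 0.358, edgeR), Elovl6, an elongase, by -0.67 ± 0.23 in Del/Dup (adjusted p = 0.192, edgeR), and Scd, which makes oleate, by -0.30 ± 0.11 in Del/Dup (adjusted p = 0.206, edgeR).

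The mean log2 level of the 7 genes, set to 0 at the wt mean, lay between -0.077 and 0.087 in Del/+ libraries, between -0.069 and 0.019 in Del/Dup, between -0.058 and 0.084 in Dup/+ and between -0.061 and 0.11 in wt, so that the groups overlapped. Oligodendrocyte and choroid plexus markers ranged more widely. Of 13 oligodendrocyte markers, 13 had a fitted value above wt in Del/+ (median 0.32), 12 in Dup/+ (0.12) and 13 in Del/Dup (0.18); edgeR called 1 of them, the myelin gene Opalin, in Del/+ (0.56, adjusted p = 0.0241), and DESeq2 called 7, beside 0.771% and 3.83% of all tested genes. Their summed level was 6534 to 9831 CPM in Del/+, 6581 to 7524 in Dup/+, 6450 to 7889 in Del/Dup and 5556 to 7206 in wt. With their mean level as a covariate the median difference of the 7 genes in Del/+ went from 0.080 to -0.040, while that of Srebf2 was -0.17. With a term for a multi-mapped share above 55% instead, the median of the 7 genes was 0.14 in Del/+ and 0.082 in Del/Dup, where it was 0.015 without the term, and Srebf2 was -0.16 and -0.11. The 2 terms thus moved the median of Del/+ in opposite directions, and 0 of the 7 genes were called with the oligodendrocyte covariate. Only Del/+ had libraries on both sides of 55%, so the second term rested on Del/+ replicate 4 against replicates 1 to 3. Its Del/+ values are those of replicate 4 alone against wt, and its Del/Dup values were shifted by the same gap. In bulk tissue, fewer cells of a type and less RNA per cell cannot be told apart.

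Choroid plexus markers, 9 of 9 above wt in each carrier group (median log2 difference 3.14 in Del/+, 1.42 in Dup/+ and 3.42 in Del/Dup), had a summed level of 118 to 1698 CPM in Del/+, 174 to 1610 in Del/Dup, 119 to 615 in Dup/+ and 98.0 to 157.5 in wt; edgeR called 0, with 9, 2 and 9 at an unadjusted p under 0.05, and DESeq2 called 6 in Del/+ and 5 in Del/Dup. Over all tested genes the shares were 18.4%, 8.94% and 16.2% at that limit, and 3.83% and 1.19% for DESeq2. Libraries of 1 genotype differed widely: the mean log2 level of the 9 genes, set to 0 at the wt mean, was -0.070 and -0.48 in Del/+ replicates 1 and 2, within the wt range of -0.66 to 0.88, and 4.80 and 1.59 in replicates 3 and 4. Of Dup/+, replicates 1, 3 and 4 lay within the wt range and replicate 2 was highest (3.32), and of Del/Dup, replicate 5 lay within it (0.82). Ttr, which encodes the thyroxine carrier that the choroid plexus secretes, was at 0.921 CPM or more in every library and reached 1087 CPM in Del/Dup replicate 2, the library lowest of all in Srebf2, Sqle and Dhcr7 and the highest of Del/Dup in Idi1 and Insig1. It reached 1126 CPM in Del/+ replicate 3, the lowest Del/+ library for Hmgcs1, Sqle, Idi1, Insig1, Fdft1 and Dhcr7, and was 2.38 CPM in Del/+ replicate 2, the lowest for Srebf2. With Ttr as a covariate the Srebf2 difference was -0.16 in Del/+ and -0.086 in Del/Dup, and that of Dhcr7 went from -0.067 to -0.023 in Del/+ and from -0.092 to -0.0070 in Del/Dup. Del/+ replicate 4, whose multi-mapped share lay among those of wt, had 368 CPM of Srebf2, below the lowest wt library. That library stood apart from the other Del/+ libraries, with a chi-square per degree of freedom of 35.3, 55.3 and 59.94 against them over all genes, where the other same-genotype pairs had 3.6 to 27.14, and it had the highest oligodendrocyte sum, 9831 CPM. The relation of each of the 7 genes to these measures between animals is given with the pairs of genes.

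Summed over 9 astrocyte genes Del/Dup libraries had 5366 to 6089 CPM, Del/+ libraries 5563 to 5936, Dup/+ libraries 5639 to 6312 and wt libraries 5650 to 6586, and over 7 neuronal genes 5992 to 6353, 6141 to 6931, 6091 to 6539 and 6142 to 7073 CPM in the same order. Over 7 microglial genes it was 224 to 237, 192 to 238, 208 to 244 and 236 to 252 CPM, and over 6 red cell genes 134 to 165, 105 to 165, 182 to 247 and 119 to 163 CPM. The red cell genes were higher in Dup/+ than in wt (median log2 difference 0.57), where edgeR called 3 of 6 (Hba-a2 under 2 gene IDs, and Hbb; 0.272% of all genes) and DESeq2 4 (0.518%). Among the astrocyte, neuronal and microglial genes edgeR called 0 against wt, and DESeq2 called 1, the neuronal Slc17a7 in Del/Dup (-0.24 in edgeR, adjusted p = 0.139), where it called 1.19% of all genes. Fitted values below wt were found for 7 of 9 astrocyte genes in Del/+ (median log2 difference -0.10), 8 in Dup/+ (-0.026) and 8 in Del/Dup (-0.098). For the microglial genes the counts were 7 of 7 (-0.15), 6 (-0.11) and 6 (-0.053) in the same order, and for the neuronal genes 4 of 7 (-0.024), 6 (-0.031) and 6 (-0.094). Of the hippocampal markers 6 of 7 passed the filter, Fibcd1 being the exception, with a summed level of 1425 to 1780 CPM for wt libraries, 1317 to 1551 for Del/+, 1231 to 1689 for Dup/+ and 1214 to 1498 for Del/Dup. All 6 had a fitted value below wt in Del/+ (median log2 difference -0.13) and in Del/Dup (-0.23), the groups with the lowest means of Srebf2, and 4 of 6 in Dup/+ (-0.10). Neither tool called any of them; 2, 1 and 1 of 6 had an unadjusted p under 0.05 in Del/+, Dup/+ and Del/Dup, beside 18.4%, 8.94% and 16.2% of all tested genes. Their part in the values of Srebf2 was not tested.

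**Figure D4:**
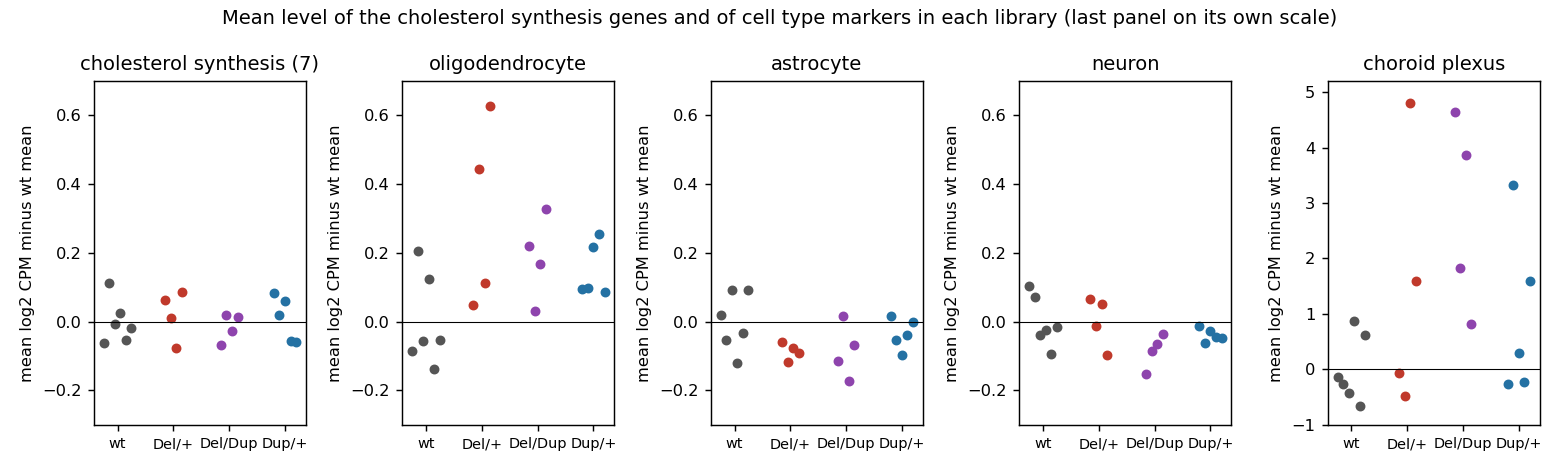
Mean log2 CPM of each gene list minus its wt mean (vertical axis) in every library, by genotype, each point being 1 rat; the choroid plexus panel has its own scale. The 7 cholesterol synthesis genes stayed between -0.077 and 0.11, oligodendrocyte markers reached 0.63 in Del/+, and choroid plexus markers reached 4.80 in Del/+.

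Whether the genes moved together between animals was asked after removing each genotype's mean from the log2 level, over 19 libraries. The SD of what remained was 0.076 for Hmgcs1, 0.086 for Sqle, 0.089 for Srebf2, 0.096 for Dhcr7, 0.114 for Fdft1 and Insig1 and 0.12 for Idi1, where the median over all tested genes was 0.135. Of the 21 pairs 16 had a Pearson r above 0, with a median of 0.34 and a range from -0.384 (Idi1 and Srebf2) to 0.771 (Dhcr7 and Srebf2). The points of a pair share the library, its depth and its scaling. P-values come from two-sided permutation of libraries within genotypes and were adjusted over the 21 pairs.

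Sqle and Fdft1, neighbours in the pathway on squalene, were the pair that passed by both measures, with Pearson r = 0.72 (permutation p = 0.00055, adjusted p = 0.0115) and Spearman rho = 0.756 (permutation p = 0.00048, adjusted p = 0.0101). Without Dup/+ replicate 4 and wt replicate 2, the libraries farthest from the median of Sqle, r was 0.655. Insig1 and Fdft1 had r = 0.739 (adjusted permutation p = 0.0223) and rho = 0.682 (0.0594), Dhcr7 and Srebf2 had r = 0.771 (0.0223) and rho = 0.588 (0.0725), Hmgcs1 and Idi1 had r = 0.653 (0.04) and rho = 0.614 (0.0601), and Hmgcs1 and Sqle had r = 0.649 (0.0404) and rho = 0.628 (0.0601). These 4 passed by Pearson r and not by Spearman rho. Without the 2 farthest libraries their r was 0.616, 0.616, 0.66 and 0.676 in this order.

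Within the 11 wt and Dup/+ libraries r was 0.763 for Sqle and Fdft1, 0.738 for Insig1 and Fdft1, 0.672 for Dhcr7 and Srebf2, 0.734 for Hmgcs1 and Idi1 and 0.641 for Hmgcs1 and Sqle. Within the 7 libraries with a multi-mapped share above 55% it was 0.472, 0.633, 0.85, 0.173 and 0.621 for the same pairs. The relation of Hmgcs1 and Idi1 was thus weak in the second set. Idi1 and Srebf2, the most opposed pair, had adjusted p = 0.268 by permutation. Against 5 measures of the libraries, namely the multi-mapped share and the mean levels of the oligodendrocyte, astrocyte, neuron and choroid plexus markers, 0 of 35 relations of the 7 genes passed after adjustment. The smallest adjusted p by Spearman rho belonged to Dhcr7 with choroid plexus markers (r = -0.537, rho = -0.626, adjusted permutation p = 0.424 and 0.153). Insig1 with astrocyte markers (rho = -0.56), Idi1 with the multi-mapped share (rho = -0.554) and Insig1 with oligodendrocyte markers (rho = 0.57) shared an adjusted permutation p of 0.213.

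**Figure D5:**
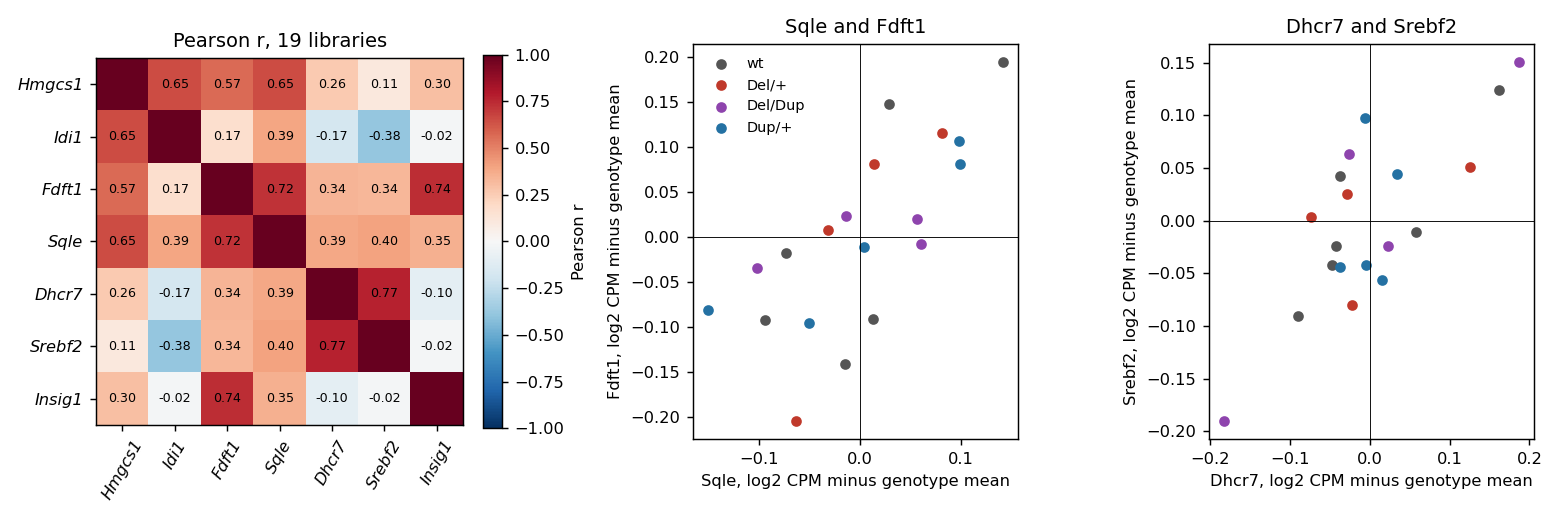
Left, Pearson r of each pair of the 7 genes over 19 libraries after removal of genotype means; middle and right, the deviations in log2 CPM from the genotype mean of Sqle against Fdft1 (r = 0.72) and of Dhcr7 against Srebf2 (r = 0.771), 1 point per rat coloured by genotype. Values of r lie between -0.384 for Idi1 and Srebf2 and 0.771 for Dhcr7 and Srebf2, and 16 of the 21 are above 0.

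The genes most like the 7 were ranked by the Pearson r of their log2 deviations with the mean of the 7 standardised deviations, over 19 libraries, as a description. The 10 highest of 15433 were Mfsd14b (0.887), Acat2 (0.835), Vps16 (0.805), Osbp (0.774), Ube2d1 (0.771), Dcbld2 (0.765), Snapc2 (0.755), Gnb2 (0.744), Cited1 (0.744) and Entpd5 (0.738). Acat2 makes the acetoacetyl-CoA that Hmgcs1 uses, and Osbp carries sterols from the endoplasmic reticulum to the Golgi; both were on the fixed lists. Of the 10, 5 remained by Spearman rho and 1 with wt libraries only. Among the 15 tested enzymes that are not members, 14 had r above 0 and the median was 0.407, against 0.00722 over all genes; 8 stood in the highest 10% of all genes, whose limit was 0.362, and 2, Acat2 being one, in the highest 1%. Oligodendrocyte markers had the same median, 0.407, with 12 of 13 above 0 and 7 of 13 in the highest 10%. Within wt libraries alone their r ran from 0.195 for Ermn to 0.978 for Mobp. For the 15 enzymes it ran there from 0.0342 for Cyp51 to 0.872 for Acat2. Choroid plexus markers had a median of -0.414 over 19 libraries, with 9 of 9 below 0. Genes of efflux and turnover had a median of -0.0044, those of uptake and transport 0.299 and those of fatty acid synthesis 0.244.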

How the data were processed

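Hippocampal RNA of 19 rats was sequenced in single 50-base reads. The authors aligned the reads with HISAT2 to build rn6, counted them per gene with HTSeq and deposited raw counts, 1 file per rat; aligner and counter versions are not given in the sources used here. The submitters' processing notes also name bcl2fastq 2.17.1.14, R 3.6 and DESeq2. Labels describe both a stranded ribosomal-depletion kit and polyA RNA. The strand setting of the counting is not given in the sources used here, so how reads of overlapping genes were handled is not known. Rows of HTSeq that name no gene were left out of library sizes: multi-mapped reads were 40.1% to 76.3% and reads outside genes 6.94% to 16.1% of a library.

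The deposited counts of 32623 genes were filtered (filterByExpr, 15440 kept), TMM-scaled and fitted with edgeR 4.0.16 (quasi-likelihood F test, prior count 2, 19 libraries, R 4.3.3), with Benjamini-Hochberg adjustment over all 15440 genes and a threshold of 0.05. Intervals are 95%. DESeq2 1.42.0 was an alternative. Correlations used 100000 permutations within genotypes (smallest possible p 1e-05).

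Replicates are separate rats. Libraries of a genotype differed beyond sampling noise in each of 37 pairs. Replicate numbers were not taken as pairs. Between genotypes, 1 of 24 same-numbered pairs of libraries correlated above 0.1, and 21 of 110 differently numbered pairs did. These correlations cannot show whether a number marks a litter or a processing set.

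The 7 genes and the gene lists were chosen with earlier results of these data known. Named beside them from the 5 sterol and lipid lists were every gene called in edgeR, of which there were 0, or else genes among the 3 with the smallest p in each list, and the 10 genes most like the 7; some listed genes enter the counts and are not reported here by name. Promoter sequences are RefSeq's, build GRCr8; coordinates of build rn6 were not used.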

Additional observations from a re-analysis of the deposited data

Results flagged for a closer look

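The level of Insig1 in Del/Dup replicate 3, 33.7 CPM, lay apart from the other 3 Del/Dup libraries, which had 37.4 to 37.9 CPM: the gap to its nearest neighbour was 0.878 of the range of the group on the log2 scale, past Dixon's critical value for 4 samples. The same check was made on 28 sets, the 7 genes in 4 genotypes, and 1 was singled out; chance singles out about 1 in 20 groups. The library lay within the wt range of Insig1, 31.7 to 38.9 CPM. The same library had the highest level of the Del/Dup group for Hmgcs1, Sqle, Dhcr7 and Srebf2.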

How the results depend on the processing

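With 29 alternatives tried, the count of called genes among the 7 changed for Del/+ against wt alone: it was 1 (Srebf2) in DESeq2, and 0 to 1 over the fits that each left out 1 library, with 1 without Del/Dup replicate 2. The median difference of the 7 genes in Del/+ against wt was -0.040 with the oligodendrocyte level as a covariate, and in Del/+ against Dup/+ it was 0.16 with a term for a multi-mapped share above 55%. That term took the median against wt the other way, from 0.080 to 0.14 in Del/+ and from 0.015 to 0.082 in Del/Dup. It rested on Del/+ replicate 4 against Del/+ replicates 1 to 3, because no other genotype had libraries on both sides of 55%. Why these Del/+ libraries differ was not tested. No call on a pathway enzyme changed.

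Differences of up to 0.095, none of them called, changed sign. With the oligodendrocyte covariate these were, in Del/+ against wt, Sqle (-0.043), Insig1 (-0.040) and Fdft1 (-0.013), in Dup/+ Insig1 (-0.049) and Fdft1 (-0.0078), in Del/Dup Hmgcs1 (-0.0067), Insig1 (-0.021) and Fdft1 (-0.049), in Del/+ against Dup/+ Fdft1 (-0.0053), and on the slope Fdft1 (0.0014). With wt replicate 5 counted as Dup/+ they were Sqle in Del/+ (-0.0056), Idi1 (-0.040) and Dhcr7 (-0.00586) in Dup/+ and Hmgcs1 in Del/Dup (-0.011). With the term for the multi-mapped share they were Sqle in Del/Dup (0.082) and in Del/+ against Dup/+ (0.026). Over fits without 1 library, Sqle in Del/+ ran from -0.014 to 0.043, and in Dup/+ Hmgcs1 from -0.049 to 0.00155, Idi1 from -0.015 to 0.0815, Insig1 from -0.027 to 0.038 and Dhcr7 from -0.0065 to 0.046. In Del/Dup the ranges were -0.011 to 0.038 for Hmgcs1, -0.045 to 0.010 for Sqle and -0.0053 to 0.063 for Fdft1.

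A replicate block was added although replicate numbers were not taken as pairs. With it, 0 of the 7 genes were called in each test, the median in Del/+ was 0.063 and Srebf2 in Del/+ was -0.21. The sign changed for Insig1 (-0.0087) and Dhcr7 (-0.00592) in Dup/+. The block took the calls over all genes from 119 to 72 in Del/+, from 14 to 7 in Del/Dup and from 127 to 76 in the joint test.

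Calls over all genes changed with the setting. Whether they changed more than calls on the 7 cannot be judged. In edgeR 0.771% of all tested genes were called in Del/+ against wt, so a count out of 7 has little room to change. DESeq2 gave 591 in Del/+, 80 in Dup/+, 183 in Del/Dup, 256 in Del/+ against Dup/+, 710 in the joint test and 162 on the slope. The oligodendrocyte covariate gave 39 in Del/+, 6 in Del/Dup and 64 in the joint test, the Ttr covariate 51, 3 and 68, and the term for the multi-mapped share 3 in Del/Dup, 51 in Del/+ against Dup/+, 79 in the joint test and 43 on the slope. With wt replicate 5 counted as Dup/+ there were 12 in Dup/+ and 57 in Del/Dup, with RLE size factors 9 and with library size only 8 in Del/Dup. Over fits without 1 library the calls ran from 46 (without Del/+ replicate 2) to 337 (without Del/Dup replicate 2) in Del/+, from 2 (without Del/Dup replicate 4) to 216 (without Del/Dup replicate 3) in Del/Dup, from 27 to 44 in Dup/+, from 61 to 416 in the joint test, from 60 to 194 in Del/+ against Dup/+ and from 48 to 124 on the slope. Each of the 7 genes had 503 reads or more in every library, and whether depth limits their intervals was not tested.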
